A study of Citrus sinensis with 48 samples.

Results

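Protease inhibitor genes were followed across the leaf transcriptomes of citrus plants of 2 genotypes kept under 8 treatments. The genes were taken by the words of their product names (Kunitz, miraculin, 21 kDa seed protein, trypsin inhibitor, proteinase or protease inhibitor, serpin), which 30 of the 30136 genes in the deposited table carry. The genotypes were Carrizo citrange (Car), which is sweet orange crossed with trifoliate orange, and the mandarin Cleopatra (Cleo), both used as rootstocks. Leaves came from control plants (CT) and from plants under water stress (WS), under high light (HL) or under heat stress (HS). Each pair of stresses was also applied together, written WS+HL, WS+HS or HL+HS, and so were all 3 at once (WS+HL+HS, the triple combination), with 3 biological replicates per group, 16 groups and 48 libraries. How long and how strong the treatments were is not stated in the labels. As a group they were chosen by product name, but with the control CPM of the genotypes in view, because 2 of the 21 kDa seed protein genes differed greatly between them. The control difference between genotypes is therefore given as a description with no test.

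Plant protease inhibitors bind proteases tightly and block them. Kunitz-type inhibitors act mostly on serine proteases of the trypsin type. They are stored in seeds and made in leaves after wounding or feeding by insects, often under the control of jasmonate, the wound hormone. The 21 kDa seed protein of cocoa and miraculin of miracle fruit have the Kunitz fold, and relatives named after them are common in trees. Cystatins, named cysteine proteinase inhibitors in the table, block papain-type cysteine proteases such as those that act in senescing and drought-stressed leaves. Serpins trap their target protease in an irreversible complex, and in Arabidopsis the serpin-ZX gene AtSerpin1 is known to trap the papain-type protease RD21.

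By product name, 17 of the 30 genes are of the Kunitz family, 7 of them named 21 kDa seed protein, 9 kunitz trypsin inhibitor 2 and 1 miraculin-like. There are 7 cystatins and 2 serpins. A wound-induced proteinase inhibitor 1-like gene and a glu S.griseus protease inhibitor-like gene have names of the potato inhibitor I family, small inhibitors of serine proteases first known from wounded potato and tomato. The other 2 genes, named inter-alpha-trypsin inhibitor heavy chain H3, were caught by the words of the rule. They are named after a secreted vertebrate protein that is not itself a Kunitz inhibitor, and they are described apart. The rule passed over 2 genes named inhibitor of trypsin and hageman factor-like. All 30 are listed as protein-coding in the table. RefSeq annotates 24 of them on a second assembly, DVS_A1.0, and there LOC102607246 is a pseudogene and LOC112499548 a long non-coding RNA.

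In the order of protein-coding genes and of the members on that assembly, 8 of the 17 Kunitz-family genes lie within a run of 20 genes. Other kinds of gene were left out of that order. They are LOC102612740, LOC102629458, LOC102630335, LOC102622572, LOC102622270, LOC102622862, LOC102621677 and LOC102606959 in this order. LOC102630335, LOC102622572 and LOC102622270 are direct neighbours in that order, and so are LOC102622862 and LOC102621677. A second run of 10 genes holds LOC102607246, LOC102631364 and the wound-induced inhibitor LOC102630850. Among the 24 placed, no other member fell in a run with another.

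Values are library levels in CPM, the count of a gene scaled by TMM-adjusted library size. Changes are on the log2 scale with their SE, set against the CT group of that genotype. They come from a quasi-likelihood test in edgeR on 23721 genes. A gene rose or fell where the p-value adjusted by Benjamini-Hochberg over all those genes was below 0.05. The control libraries were in view when the genes were chosen. Changes against CT, and genotype differences of such changes, are therefore not independent of that choice. Of the 30 genes, 26 had enough counts to be tested. The libraries held 40294831 to 58392998 counts. Within a group the replicates were distinct libraries, with chi-square values of 4.17 to 126 per gene where sampling alone gives about 1. Column names of 11 libraries carry an unexplained mark. In Car these are replicates 1 and 3 of CT, replicate 1 of HL, all 3 HS libraries and replicate 1 of WS+HL. In Cleo they are replicate 3 of CT, replicates 1 and 2 of HL+HS and replicate 3 of the triple combination. The list of leaf mesophyll markers summed to 5189 to 50490 CPM, and none of its 17 genes was at 0 throughout. The summed list of seed storage proteins stood at 41.6 to 158.8 CPM, with 2 of its 13 genes at 0 throughout. In bulk leaf RNA, fewer cells of a type and less RNA per cell cannot be told apart. Reads of both genotypes were counted on sweet orange gene models, so a genotype difference in RNA level and one in how well the reads match the models cannot be told apart.

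In control leaves the Kunitz-family genes with the highest levels were not the same in the 2 genotypes. LOC102621677, a 21 kDa seed protein-like gene, read 10222, 9724 and 13628 CPM in Cleo and 94.2, 78.8 and 93.4 CPM in Car, a log2 difference of 6.98 ± 0.18. Neighbours in the same run of genes, LOC102622270 (kunitz trypsin inhibitor 2) and LOC102622572 (kunitz trypsin inhibitor 2-like), were 37.0-fold and 19.96-fold higher in Cleo. In the other direction, the 21 kDa seed protein-like genes LOC102606769 and LOC107175685 averaged 1148 and 409.3 CPM in Car and 0.167 and 0.0638 CPM in Cleo. Counted over the 26 tested genes, 9 were at least 2-fold higher in Cleo and 6 at least 2-fold lower with no overlap between the libraries of the genotypes. Among all tested genes the shares were 12.6% and 19.9%. The genes were chosen with this contrast in view, so nothing is read from that count.

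The remaining control differences ran from large to slight. The wound-induced inhibitor LOC102630850 read 238, 190 and 588 CPM in Cleo, the highest value in the marked replicate 3, and 2.57, 1.57 and 1.99 CPM in Car. LOC102623961, another kunitz trypsin inhibitor 2-like gene, was at 48.8, 35.0 and 63.6 CPM in Cleo and at 0.24, 0.238 and 0.483 CPM in Car. LOC102631364 and LOC102607246, both 21 kDa seed protein-like, were 20.65-fold and 4.81-fold higher in Cleo. LOC102622862, a 21 kDa seed protein gene, held 762 counts in the 3 Cleo control libraries and 3 in the 3 Car libraries, a ratio of 266.5 with a 95% counting interval of 90.9 to 1295. Higher in Car were LOC107178900, kunitz trypsin inhibitor 2-like (13.6-fold), the cystatin LOC102608318 (5.96-fold) and the inter-alpha-trypsin inhibitor gene LOC102618944 (2.06-fold). Serpin-Z1A-like LOC102629108 had no count in the Cleo control libraries and was at least 88.0-fold higher in Car, against a floor of 3 counts over the group. By contrast the cystatins LOC102618591, LOC102623947, LOC102628401 and LOC102620074 and the serpin LOC102629272 had control libraries that overlapped between the genotypes.

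**Figure D1:**
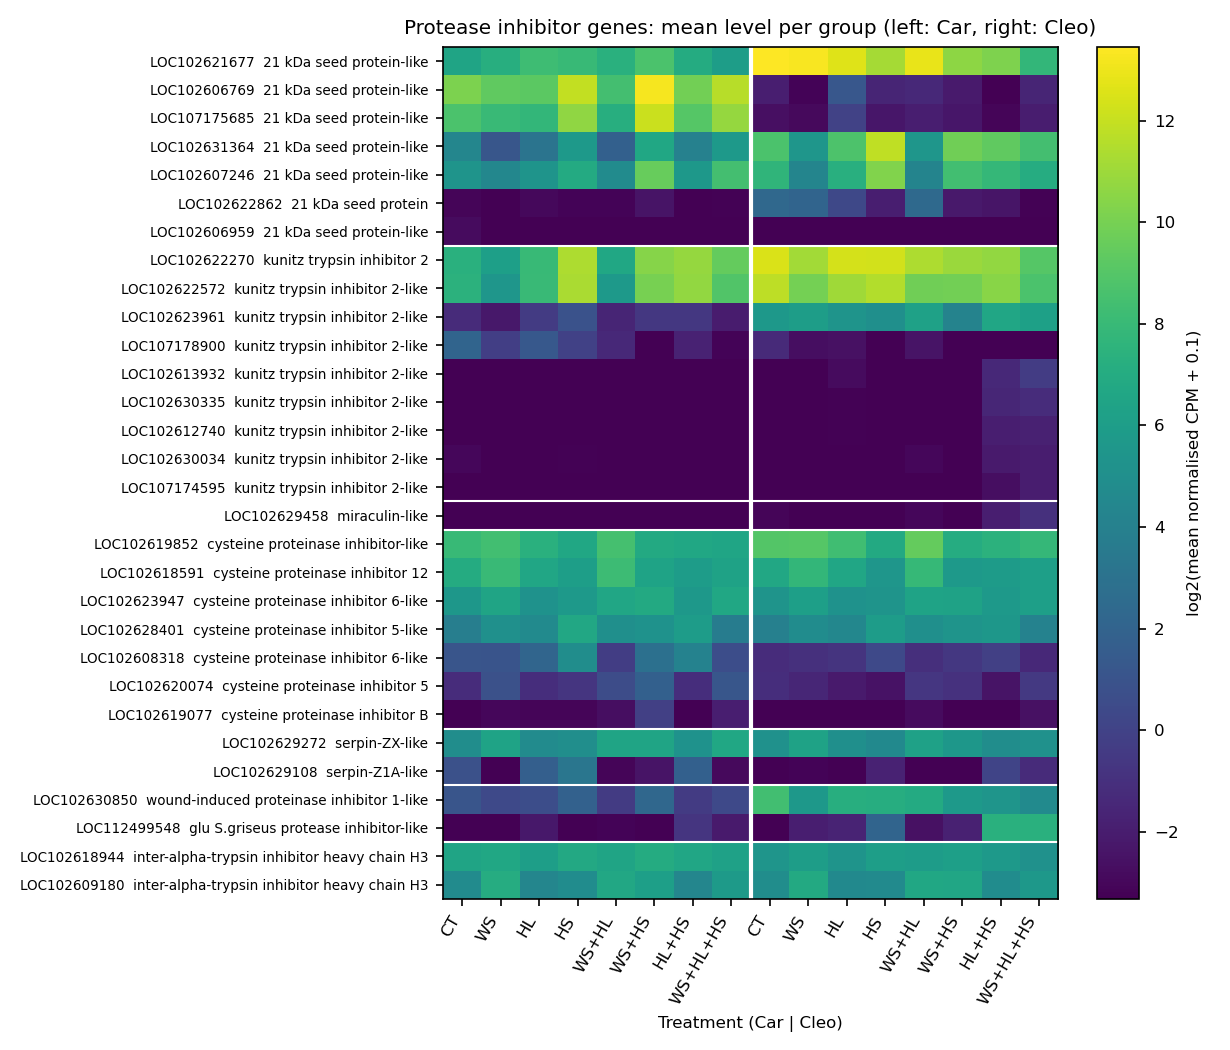
Mean normalised level of each of the 30 protease inhibitor genes in the 16 groups, as log2 of the mean CPM plus 0.1 (colour scale), with Car in the left and Cleo in the right columns and 1 row per gene. LOC102606769 and LOC107175685 are bright in the Car columns alone, LOC102621677 and LOC102623961 are brighter in Cleo, and the darkest rows are genes with few counts in any group.

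Summed over all 30 genes, inhibitor transcripts took a larger share of the leaf library in Cleo than in Car under CT, at 2.17% ± 0.36 and 0.298% ± 0.0495 of all counts (SD, n = 3). In Cleo the share was lower than under CT in every treatment, with or without heat, while in Car it was higher in the 4 heat treatments. In Car the share was 1.34% ± 0.0374 under HS and 2.05% ± 0.0361 under WS+HS, above all CT libraries of Car, and it was 0.234% under WS, 0.230% under HL and 0.193% under WS+HL. In Cleo it was 1.62% ± 0.0791 under HS, 0.668% ± 0.0216 under WS+HS, 0.519% ± 0.0799 under HL+HS and 0.231% ± 0.0172 under the triple combination, below all CT libraries of Cleo. Without heat it was 1.34% under WS, 1.30% under HL and 1.14% under WS+HL in Cleo, also below all CT libraries and below the value under HS. The 2 genotypes thus changed places, with Cleo ahead of Car in all libraries under CT and behind it in all libraries under WS+HS and WS+HL+HS. The Kunitz family made up most of this share, at 0.232% in Car and 2.06% in Cleo under CT, while the cystatins stayed between 0.0271% and 0.0965% in all 16 group means. These shares are descriptions of a sum over genes chosen with results known, and no test was run on them.

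**Figure D2:**
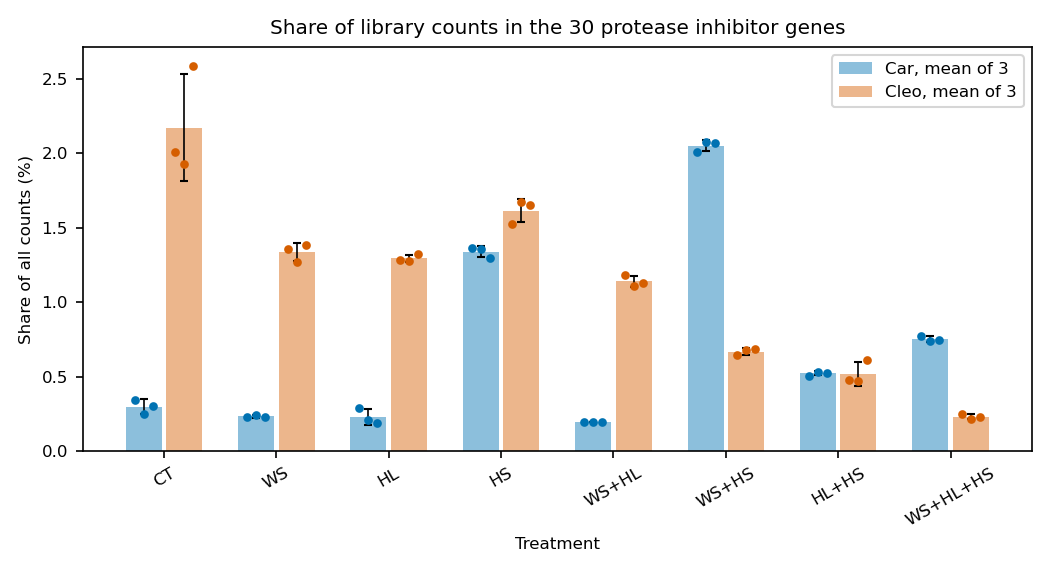
Share of all library counts taken by the 30 protease inhibitor genes (vertical axis, percent) by treatment, with bars for the mean of 3 libraries, error bars of 1 SD and a point for each library. Car stands highest under WS+HS at 2.05% and Cleo under CT at 2.17%.

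Among the single stresses, HS was the one with most rises in Car. There 13 of the 26 tested genes rose and 3 fell, where 32.3% and 26.3% of all tested genes did. All 3 HS libraries of Car carry the unexplained column mark. The median log2 change of the 26 was 0.69, against 0.06 for all genes, and 1.45 over the 20 genes that allow a fold when those near 0 counts are set at their bound. In Cleo HS went with 7 rises and 10 falls, against 27.1% and 27.4% of all genes. Under WS 9 rose and 6 fell in Car (all genes 29.5% and 35.3%) and 7 rose and 6 fell in Cleo (31.2% and 33.4%). The mesophyll marker list summed to 7352 to 8150 CPM under WS in Car and 5189 to 5416 CPM in Cleo, against 23370 to 31890 and 33290 to 43850 CPM under CT, and its part in the WS results was not tested. Under HL the counts were 5 and 7 in Car (9.69% and 8.77%) and 4 and 8 in Cleo (17.7% and 18%). Fitted on the libraries of the comparison alone, the 12 calls under HL became 4 in each genotype. In either direction HL called 18.5% of all genes in Car and 35.7% in Cleo.

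With WS+HS, 16 genes rose and 4 fell in Car (all genes 31.9% and 35%), with a median log2 change of 1.41 against -0.03 for all genes. LOC102619077 had enough counts to be tested only through that group, where it could be counted only as a rise. In Cleo 9 rose and 9 fell under WS+HS (32.2% and 32%). Marker lists of other leaf cell types moved as well: in Car the mesophyll list summed to 44740 to 50490 CPM under HS and 12490 to 13070 CPM under WS+HS, and the list of 14 phloem markers to 130.8 to 145.7 CPM under WS+HS against 256.8 to 355.6 CPM under CT. The list of 22 xylem and secondary wall markers summed to 57.3 to 61.16 CPM under WS+HS and 26.1 to 31.51 CPM under the triple combination in Car, against 279.4 to 435.6 CPM under CT. In Cleo under WS+HS the mesophyll list stood at 11780 to 12260 CPM, the phloem list at 189.2 to 202.4 CPM against 367.4 to 457.6 CPM under CT, and the xylem list at 96.24 to 107.5 CPM against 127.3 to 191.2 CPM. No gene of the phloem and xylem lists was at 0 throughout, and their part in the results was not tested. With HL+HS, 9 rose and 5 fell in Car (29.5% and 31.4%) and 10 rose and 10 fell in Cleo (35.5% and 31.5%). In the triple combination 12 rose and 7 fell in Car (32.5% and 38.7%) and 9 rose and 10 fell in Cleo (37.5% and 35.1%). LOC102613932, LOC102630335 and LOC102629458 had enough counts to be tested only through HL+HS and the triple combination in Cleo. In those groups they could be counted only as rises. Without heat, WS+HL gave 8 rises and 10 falls in Car (28.8% and 33.2%) and 8 rises and 7 falls in Cleo (31.2% and 33.7%).

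The genotype difference of a response, Cleo minus Car, was more often called as negative than as positive under HS, WS+HS and the triple combination. Under HS it was called as negative for 13 genes and positive for 3 (all genes 23.5% and 20.2%), and under WS+HS for 14 and 2 (21.2% and 20.5%). In the triple combination 11 were negative and 2 positive (27.3% and 29.1%). Under HL+HS there were 7 negative and 3 positive (23.5% and 26.5%), with the negative calls near the share of all genes. LOC102619077 under WS+HS could be called only as negative. LOC102613932, LOC102630335 and LOC102629458 could be called only as positive under HL+HS and the triple combination. Without heat there were 6 negative and 3 positive under WS (18.3% and 17.8%), 3 and 4 under HL (7.66% and 7.77%) and 4 and 3 under WS+HL (21% and 19%). The positive calls under HL include LOC102606769 (4.54) and LOC107175685 (4.39), whose values rest on replicate 3 of HL in Cleo. Fitted on its own libraries, the difference under HL was called for 2 genes in place of 7, where 15.4% of all genes were called in the full fit. All these differences include the control libraries by which the genes were picked out, and the responses of 1 genotype share its 3 control libraries.

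Compared directly under stress, Cleo was higher than Car in 9 genes and lower in 10 under WS (all genes 34.7% and 33.7%), 11 and 8 under HL (33.8% and 35.4%), and 8 and 11 under HS (33.7% and 37.3%). For WS+HL the counts were 8 and 8 (34% and 34.4%), and for WS+HS 7 and 11 (33.2% and 32.7%). For HL+HS they were 12 and 9 (39% and 35.6%), and for the triple combination 11 and 11 (39.3% and 36%). LOC102613932, LOC102630335 and LOC102629458 were tested only through HL+HS and the triple combination in Cleo and had no count in Car. In those comparisons they could be counted only as higher in Cleo. LOC102619077, tested only through WS+HS in Car, could be counted there only as lower in Cleo.

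LOC102606769 and LOC107175685, the 21 kDa seed protein-like genes of Car, were the most abundant inhibitor transcripts of that genotype under WS+HS, at means of 9816 and 4206 FPKM. LOC102606769 read 1437, 875 and 1132 CPM under CT in Car, 3827, 3909 and 3897 under HS, 9177, 9726 and 10258 under WS+HS and 3256, 3126 and 3083 under WS+HL+HS. The libraries of these 3 heat treatments all lay above the CT libraries. It rose by 1.76 ± 0.44 under HS (adjusted p = 0.000869), by 3.08 ± 0.46 under WS+HS (adjusted p = 5.16e-07) and by 1.46 ± 0.43 under the triple combination, and under HL+HS it stood at 955, 997 and 898 CPM, with no call. Under WS+HL it fell by 1.70 on the log2 scale (± 0.44), to 374, 340 and 345 CPM. DESeq2's Wald test did not call the rise under the triple combination (adjusted p = 0.0842).

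LOC107175685 read 483, 297 and 448 CPM under CT in Car and 4635, 4563 and 4286 CPM under WS+HS, a rise of 3.46 ± 0.34. It rose by 2.02 ± 0.32 under HS and by 2.11 ± 0.32 under the triple combination, and fell by 1.48 on the log2 scale (± 0.32) under WS+HL. DESeq2's Wald test did not call that fall (adjusted p = 0.0875). In the 24 Car libraries the counts of LOC102606769 were 1.71 to 2.98 times those of LOC107175685, with a median of 2.38. No label says how reads that fit both genes were shared out, so the split between them is uncertain.

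In Cleo this pair was almost silent. Over 23 of the 24 libraries LOC102606769 ranged from 0 to 0.705 CPM and LOC107175685 from 0 to 0.4465 CPM. The other library, replicate 3 of HL, held 6.70 and 2.62 CPM, while its fellow replicates held at most 0.123 CPM of either gene. The called rises under HL in Cleo, 3.57 ± 1.02 and 3.49 ± 1.16, rest on that library. Without it the values were -0.72 (adjusted p = 0.719) and -1.03 (adjusted p = 0.739), and 9 of the 26 genes were called under HL in Cleo.

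LOC102621677 had the highest level per length of the 30 genes in control leaves of Cleo, a mean of 8407 FPKM. It went down in Cleo with every treatment that held heat. From 9724 to 13628 CPM under CT it stood at 2021, 2295 and 2596 CPM under HS, 1515, 1563 and 1606 under WS+HS, 1006, 1005 and 1529 under HL+HS and 265, 200 and 195 under the triple combination. No library of these groups reached the CT libraries. The falls on the log2 scale were -2.28 ± 0.15, -2.84 ± 0.15, -3.25 ± 0.15 and -5.67 ± 0.17 in that order, the last at adjusted p = 3.81e-28. Under WS the libraries read 10645, 9573 and 10180 CPM, with no call, and under HL and WS+HL the gene fell by 0.80 and 0.56 on the log2 scale (± 0.14 for both).

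In Car the same gene, LOC102621677, started low and moved the other way. It read 387, 283 and 248 CPM under HL, 279, 240 and 224 under HS and 421, 434 and 419 under WS+HS, all above the CT libraries at 78.8 to 94.2 CPM. The rises were 1.78 ± 0.15, 1.48 ± 0.14 and 2.26 ± 0.15, and a rise of 0.74 ± 0.14 was called under WS. Only under the triple combination did it fall in Car, by 0.45 on the log2 scale (± 0.14), to 64.3, 65.4 and 65.8 CPM. The difference between genotypes shrank from 6.98 under CT to 1.88 ± 0.15 under WS+HS and 1.76 ± 0.15 under the triple combination, where Cleo was still higher (adjusted p = 8e-14). Between genotypes the responses differed by -5.10 ± 0.21 under WS+HS and -5.22 ± 0.21 under the triple combination. Both values include the control difference that was in view when the genes were chosen.

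**Figure D3:**
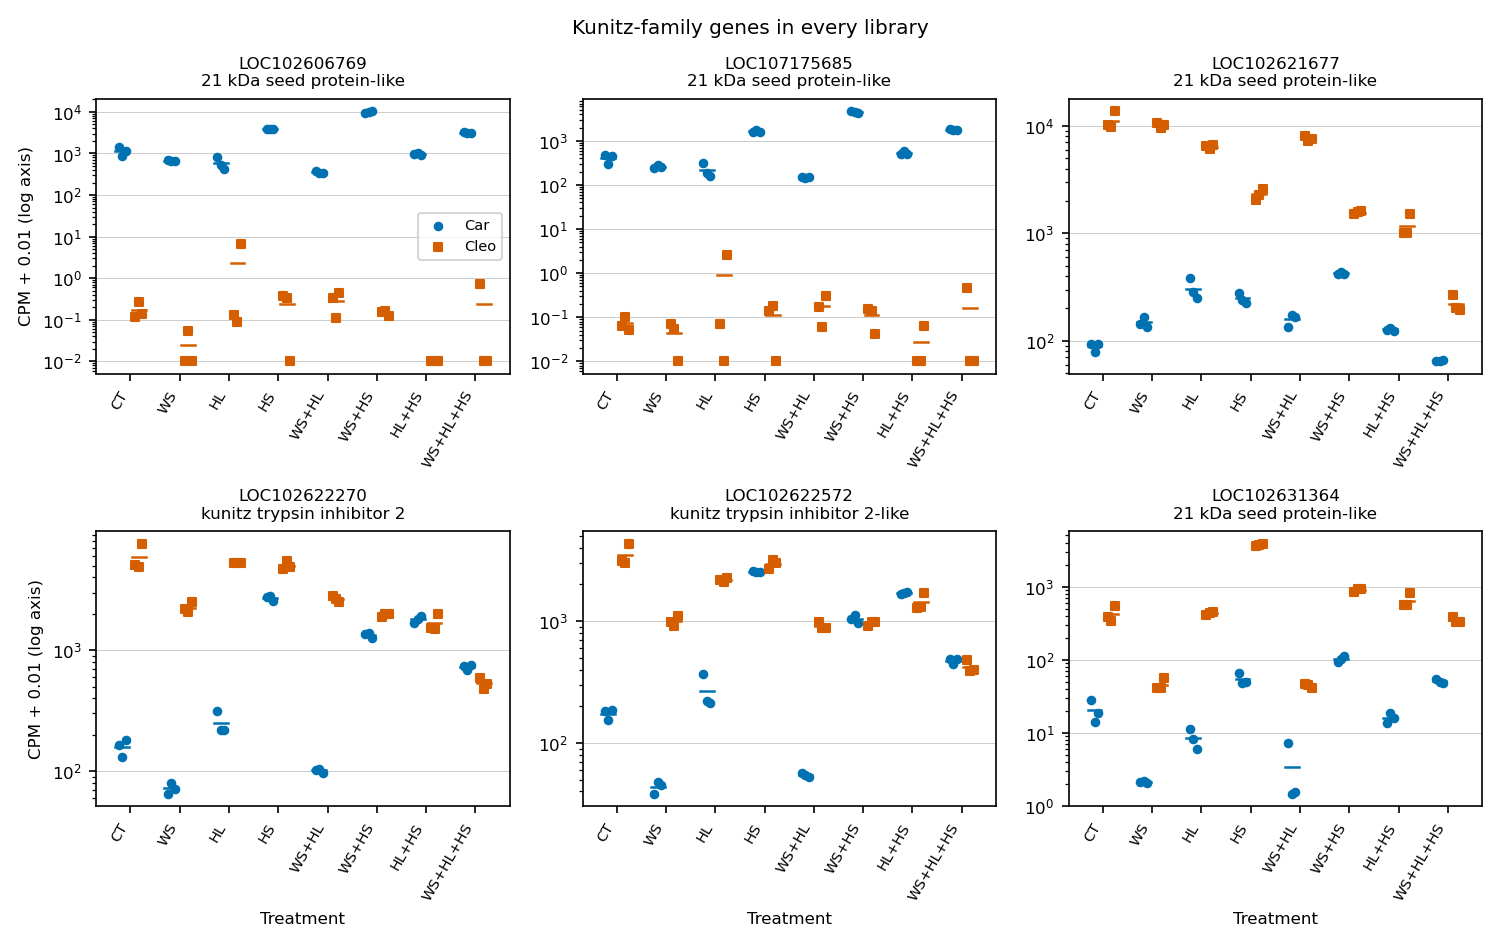
Level of 6 Kunitz-family genes in every library (CPM plus 0.01, log axis) by treatment, with circles for Car, squares for Cleo and a short line at each group mean. The first 2 panels show genes at 143 CPM or more in all Car libraries and near 0 in Cleo, where a single HL library of Cleo stands above its replicates, and the panels of LOC102622270 and LOC102622572 show the genotypes coming closer in the heat treatments.

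The 2 neighbouring kunitz trypsin inhibitor 2 genes rose with heat in Car. LOC102622270 read 165, 131 and 181 CPM under CT in Car, 2743, 2806 and 2569 under HS, 1674, 1827 and 1925 under HL+HS, 1364, 1387 and 1255 under WS+HS and 743, 680 and 760 under WS+HL+HS. No heat library overlapped the controls. The rises were 4.09 ± 0.15 (adjusted p = 1.08e-24), 3.51 ± 0.14, 3.07 ± 0.14 and 2.20 ± 0.14. LOC102622572 rose alongside it by 3.87 ± 0.15, 3.28 ± 0.15, 2.58 ± 0.14 and 1.44 ± 0.14, reaching 2563, 2526 and 2533 CPM under HS. Water stress without heat went with the opposite change in Car, a fall of 1.14 (± 0.13) and 1.99 (± 0.14) on the log2 scale under WS and of 0.65 (± 0.13) and 1.68 (± 0.14) under WS+HL.

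In Cleo neither gene rose under any treatment. LOC102622270 read 5110, 4911 and 7609 CPM under CT and 4700, 5468 and 4885 CPM under HS, and the groups overlapped. It fell by 1.39 under WS, 1.15 under WS+HL, 1.59 under WS+HS, 1.80 under HL+HS and 3.46 under the triple combination (SE 0.13 to 0.14), the last to 591, 478 and 529 CPM. LOC102622572 read 3108, 3008 and 4313 CPM under CT and changed by -1.80, -1.92, -1.86, -1.29 and -3.05 in the same 5 treatments (SE 0.14 for each). Under HL it fell by 0.69 on the log2 scale (± 0.13).

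The control gap of 5.21 ± 0.16 for LOC102622270 went to 0.89 ± 0.13 under HS and 0.55 ± 0.13 under WS+HS. Under HL+HS it was -0.10 ± 0.13 (adjusted p = 0.476), and under the triple combination Car was the higher genotype, by -0.45 ± 0.13 (adjusted p = 0.00231). For LOC102622572 the control gap was 4.32 ± 0.15, and in the 4 heat treatments the genotypes differed by at most 0.25 on the log2 scale in size, with no call. Without heat the gap stayed between 3.01 ± 0.14 and 4.97 ± 0.15 in both genes. The genotype difference of the response ranged from -4.32 ± 0.19 under HS to -5.66 ± 0.20 under the triple combination for LOC102622270, and from -4.10 ± 0.20 to -4.56 ± 0.20 for LOC102622572 over the heat treatments. The ratio of counts of LOC102622270 to LOC102622572 was 0.854 to 1.95 in Car (median 1.18) and 1.15 to 3.0 in Cleo (median 1.9), and how reads that fit both were shared out is not known.

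**Figure D4:**
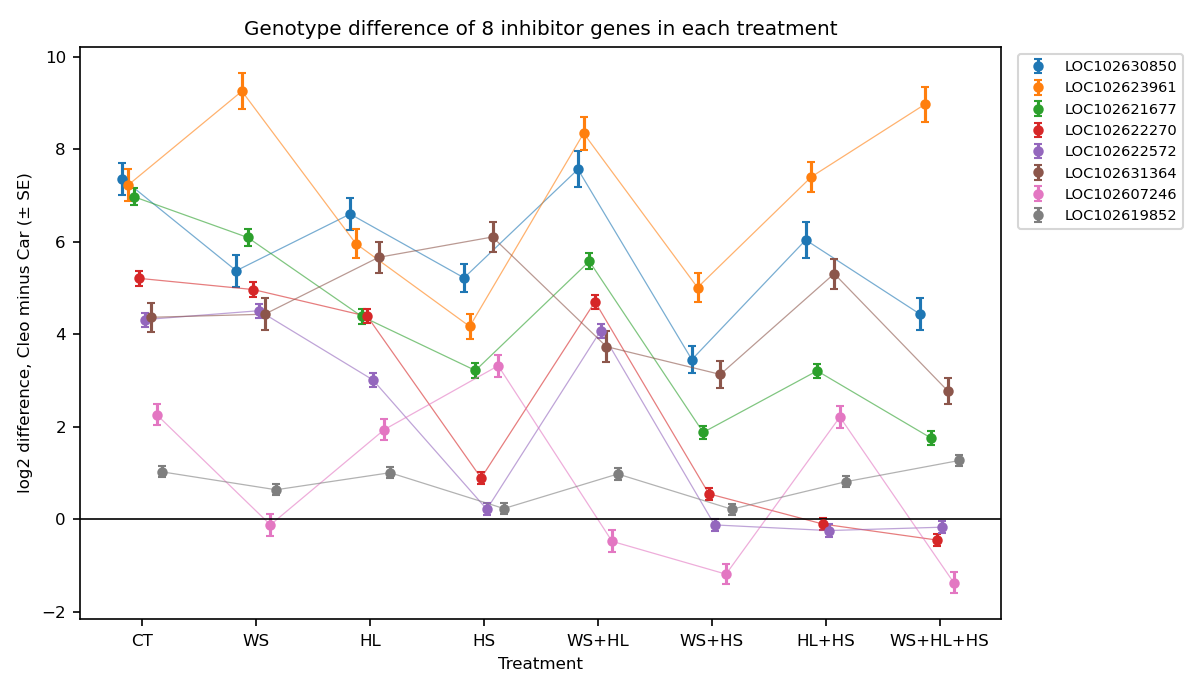
Log2 difference of Cleo minus Car for 8 inhibitor genes in each treatment, with error bars of 1 SE and lines that only join the points of a gene. LOC102622270 and LOC102622572 fall from above 4 under CT to near 0 in the heat treatments, while LOC102623961 and LOC102630850 stay above 3 throughout.

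LOC102631364 and LOC102607246, the neighbouring 21 kDa seed protein-like genes of the second run, rose with HS in both genotypes and fell with WS. In Cleo LOC102631364 read 383, 339 and 537 CPM under CT, 3553, 3752 and 3855 under HS and 40.5, 40.6 and 55.6 under WS. The groups stood clear of each other, with a rise of 3.15 ± 0.29 (adjusted p = 1.35e-11) and a change of -3.20 ± 0.29. In Car it read 28.1, 14.03 and 18.9 CPM under CT, 64.9, 48.3 and 48.9 under HS (1.41 ± 0.28) and 2.11, 2.18 and 2.02 under WS (-3.27 ± 0.34). Under WS+HS it rose in both, by 2.33 ± 0.28 in Car and 1.10 ± 0.27 in Cleo, and under WS+HL it fell in both, with changes of -2.62 ± 0.33 and -3.25 ± 0.29. Without replicate 1 of WS+HL in Car the first was -3.76.

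LOC102607246, the pseudogene of the other assembly, differed more between genotypes in its response to water stress. In Cleo it fell from 185, 152 and 263 CPM under CT to 16.8, 18.3 and 23.9 CPM under WS (-3.34 ± 0.25), and in Car from 54.8, 26.7 and 43.1 to 22.1, 21.5 and 20.7 CPM (-0.95 ± 0.23). For WS the responses differed between genotypes by -2.39 ± 0.33 (adjusted p = 2.42e-07). Under WS+HS it reached 700, 743 and 773 CPM in Car (4.15 ± 0.25) and under the triple combination 351, 330 and 342 CPM (3.04 ± 0.24). There Car stood above Cleo, by -1.19 ± 0.22 and -1.37 ± 0.22, although Cleo was the higher genotype under CT, HL, HS and HL+HS. The ratio of counts of LOC102631364 to LOC102607246 was 0.0626 to 0.525 in Car and 2.04 to 3.12 in Cleo, ranges that did not overlap.

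LOC102623961 kept the genotypes apart in all treatments, at 15.5 to 104.5 CPM in the 24 Cleo libraries and at 0.0354 to 2.28 CPM in the 24 Car libraries. In Cleo it fell under WS+HS to 15.5, 18.0 and 20.2 CPM (-1.45 ± 0.22) and rose under HL+HS to 94.8, 86.1 and 104 CPM (0.95 ± 0.21). Its highest Car libraries were those of HS, at 2.28, 1.86 and 1.29 CPM (2.47 ± 0.42). LOC107178900 was highest under CT in both genotypes. In Car it read 4.43, 3.53 and 4.56 CPM under CT, fell by 2.47 (± 0.41) under WS and 2.32 (± 0.40) under HS, and held no count under WS+HS, at least 257.8-fold lower than CT. In Cleo it had no count in the 12 libraries with heat. LOC102622862 in Cleo went from 4.66, 4.34 and 5.89 CPM under CT to 0.165, 0.112 and 0.225 under HS (-4.89 ± 0.54) and to 1 count in 3 libraries under the triple combination, a ratio of 661.3 with a counting interval of 118.3 to 26150.

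A further 6 Kunitz-family genes were close to silent, and nearly all their counts came from 6 of the 48 libraries, those of Cleo under HL+HS or under all 3 stresses. These libraries held 132 of the 138 counts of LOC102613932, 78 of the 79 of LOC102630335, 77 of the 83 of miraculin-like LOC102629458, 48 of the 49 of LOC102612740, 39 of the 47 of LOC102630034 and all 28 of LOC107174595. LOC102613932 read 0.799, 0.63 and 0.653 CPM under the triple combination in Cleo and had no count under CT, at least 35.7-fold higher. LOC102630335 was at least 17.3-fold higher there. LOC102612740, LOC102630034 and LOC107174595 did not pass the filter on low counts and were not tested, and neither was LOC102606959, with 7 counts in a single control library of Car. LOC102613932, LOC102630335 and LOC102629458 passed it only through these Cleo libraries, where they could be counted only as rises. The rises of LOC102613932 and LOC102630335 were not called by DESeq2's Wald test (adjusted p from 0.417 to 0.522). The share of ribosomal RNA in the counts was 1.63% to 2.897% in HL+HS and 1.42% to 5.39% in the triple combination of Cleo. It was 0.457% to 3.75% in the other libraries, and its part in these counts was not tested.

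The cystatins LOC102619852 and LOC102618591 fell in all 4 heat treatments and rose under WS+HL in both genotypes. LOC102619852 read 255, 215 and 281 CPM under CT in Car and 486, 428 and 614 CPM in Cleo. Under HS it stood at 106, 93.8 and 101 CPM in Car (-1.32 ± 0.12) and at 110, 130 and 112 CPM in Cleo (-2.11 ± 0.12), and the genotype difference of 0.23 ± 0.12 was not called (adjusted p = 0.085). Under WS+HL it rose by 0.54 ± 0.12 in Car and 0.49 ± 0.12 in Cleo. LOC102618591, cysteine proteinase inhibitor 12, rose from 121, 113 and 143 CPM to 245, 277 and 270 CPM under WS in Car (1.07 ± 0.09) and by 1.05 ± 0.09 in Cleo. Under HS it fell by 0.90 and 1.27 on the log2 scale (± 0.09), to 44.8, 46.1 and 44.2 CPM in Cleo.

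Other cystatins rose under HS. LOC102628401 (cysteine proteinase inhibitor 5-like) went from 13.9, 14.5 and 14.02 CPM under CT to 113, 97.0 and 108 under HS in Car (2.91 ± 0.13) and from 14.3, 13.3 and 20.4 to 51.2, 69.5 and 62.9 in Cleo (1.94 ± 0.13). Between genotypes the response differed by -0.97 ± 0.17 (adjusted p = 1.27e-05). It also rose without heat, to 36.5, 33.3 and 32.6 CPM under WS in Car (1.27 ± 0.13) and 25.5, 28.9 and 29.7 CPM in Cleo (0.81 ± 0.12), and under WS+HL by 1.197 ± 0.13 and 1.05 ± 0.13. Under WS+HS the rise was 1.41 ± 0.12 in Car and 1.35 ± 0.12 in Cleo, and under HL+HS 2.15 ± 0.13 and 1.54 ± 0.13. Under the triple combination it was back at 14.01, 12.5 and 13.6 CPM in Car and 17.6, 16.2 and 16.7 CPM in Cleo, with no call. LOC102608318 (6-like) rose from 2.03, 2.18 and 1.85 to 31.4, 28.2 and 28.7 CPM under HS in Car (3.87 ± 0.20) and from 0.309, 0.3 and 0.407 to 1.12, 1.53 and 1.03 CPM in Cleo (1.86 ± 0.26). Under WS+HL it fell in Car by 1.44 on the log2 scale (± 0.23).

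LOC102623947 (6-like) rose in all 4 treatments with water stress, by 0.92 to 1.33 in Car and 0.74 to 1.04 in Cleo (SE 0.10), to 115, 122 and 115 CPM under WS+HS in Car against 46.7, 39.6 and 53.5 under CT. LOC102620074 (5), at under 5 CPM throughout, rose in the same 4 treatments in Car, by 2.26 ± 0.44 under WS and 3.34 ± 0.44 under WS+HS, and in none of them in Cleo. This response differed between genotypes, and the difference was -2.80 ± 0.65 under WS and -3.14 ± 0.63 under WS+HS. LOC102619077 (B) had no count under CT in either genotype and reached 0.448, 1.06 and 0.956 CPM under WS+HS in Car, at least 44.7-fold higher than CT. It had enough counts to be tested only through that group, where it could be counted only as a rise. In Cleo it had no count under WS+HS.

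**Figure D5:**
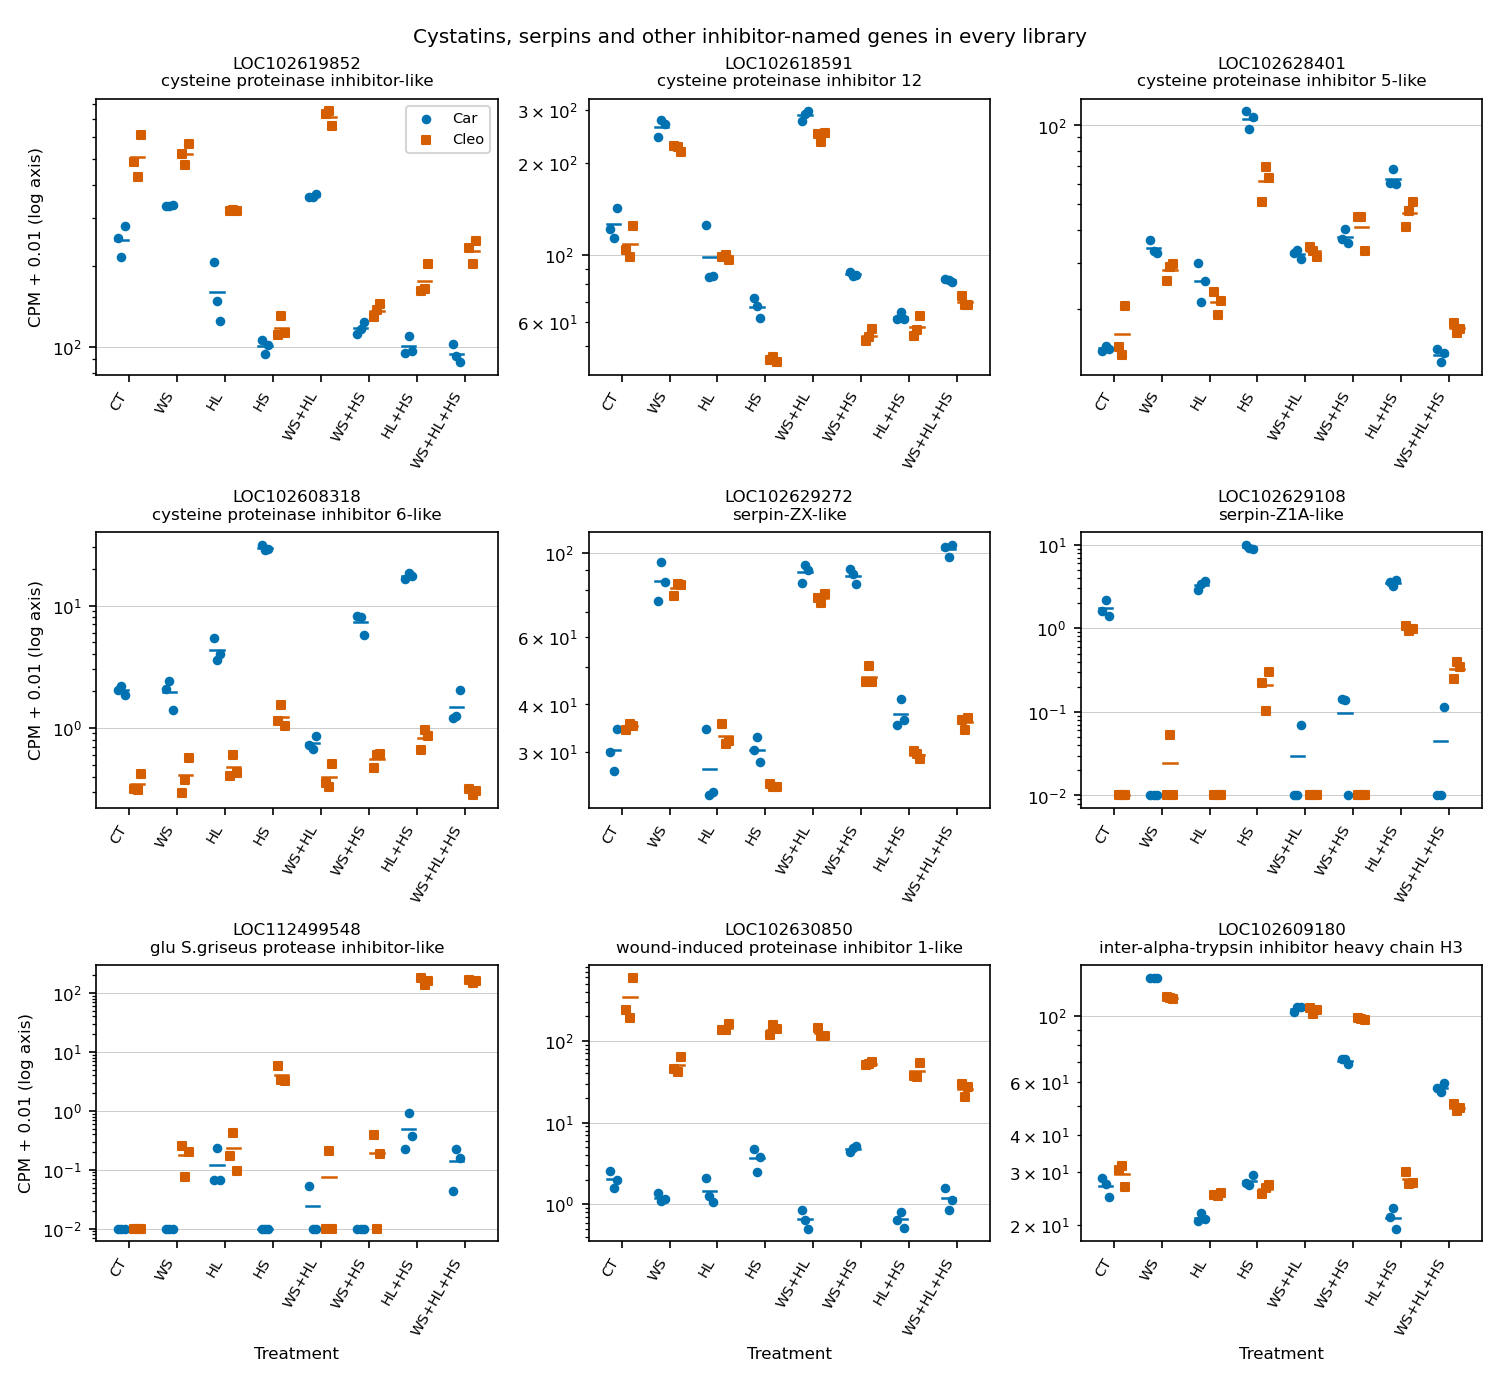
Level of 4 cystatin, 2 serpin and 3 other inhibitor-named genes in every library (CPM plus 0.01, log axis) by treatment, with circles for Car, squares for Cleo and a short line at each group mean. LOC112499548 lies above 100 CPM in Cleo libraries under HL+HS or the triple combination and below 6 CPM in every other library, and serpin-ZX-like LOC102629272 stays high under WS+HL+HS in Car but not in Cleo.

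The serpin-ZX-like gene LOC102629272 rose with water stress in both genotypes, and in Cleo the rise was smaller or not called where heat was present. Under WS it went from 29.97, 26.7 and 34.6 to 74.5, 94.7 and 84.0 CPM in Car (1.47 ± 0.10) and from 34.4, 35.6 and 35.2 to 77.0, 82.6 and 82.0 CPM in Cleo (2.299-fold, SE 0.10 on the log2 scale). Under WS+HL it read 76.1, 73.9 and 78.0 CPM in Cleo (1.12 ± 0.10), with a rise of 1.54 ± 0.10 in Car. Under WS+HS the rise was 1.52 ± 0.10 in Car and 0.43 ± 0.10 in Cleo. Under the triple combination it read 104, 97.2 and 105 CPM in Car (1.74 ± 0.10) and 36.5, 34.4 and 36.8 CPM in Cleo (0.03 ± 0.10, adjusted p = 0.783). Between genotypes the responses differed by -1.08 ± 0.14 under WS+HS and -1.71 ± 0.14 under the triple combination (adjusted p = 8.16e-14), against -0.27 ± 0.14 under WS, which was not called. HS alone went with a fall of 0.52 on the log2 scale (± 0.10) in Cleo.

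Serpin-Z1A-like LOC102629108 was a low-level gene that vanished with water stress in Car. It read 1.59, 2.20 and 1.38 CPM under CT, 10.02, 9.15 and 8.83 CPM under HS (2.44 ± 0.41) and 0 in the 3 WS libraries, at least 93.0-fold lower than CT. Under WS+HL 3 counts were left in the group, a ratio of 85.97 with a counting interval of 29.1 to 419.4. In Cleo it had no count under CT and read 1.05, 0.924 and 0.974 CPM under HL+HS, at least 50.8-fold higher than CT.

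The wound-induced proteinase inhibitor 1-like gene LOC102630850 fell with every stress in Cleo. From 238, 190 and 588 CPM under CT it stood at 44.9, 42.1 and 62.9 CPM under WS, 37.6, 35.99 and 53.9 under HL+HS and 29.9, 20.3 and 27.0 under the triple combination. The changes were -2.76 ± 0.26, -3.00 ± 0.27 and -3.72 ± 0.28, and the smallest, under HL, was -1.24 ± 0.25. These values depend on replicate 3 of CT in Cleo, the highest library: without it they were -2.10, -2.34, -3.06 and -0.57, all still called, and the control difference between genotypes was 6.71 in place of 7.37. That change under HL was not called in a fit of its own libraries (adjusted p = 0.072). In Car the gene lay between 0.494 and 5.12 CPM in all 24 libraries, below every Cleo library (20.3 to 587.7 CPM). It rose there under WS+HS, by 1.23 ± 0.34, and fell under WS+HL and HL+HS, by 1.65 (± 0.48) and 1.67 (± 0.49).

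LOC112499548, named glu S.griseus protease inhibitor-like after a bitter gourd inhibitor of the potato inhibitor I family, was an almost all-or-none gene. It had no count in the 6 CT libraries. In Cleo it read 180, 134 and 163 CPM under HL+HS, 169, 146 and 160 CPM under the triple combination and 5.79, 3.39 and 3.15 CPM under HS, and at most 0.417 CPM under the other treatments. Against a floor of 3 counts over the CT group these are at least 8197-fold, 8159-fold and 218.8-fold higher. In Car the highest library was at 0.896 CPM, under HL+HS, and no count was found under HS. Cleo stood above Car by 8.34 ± 0.40 under HL+HS (adjusted p = 2.36e-16) and by 10.23 ± 0.46 under the triple combination. Without replicate 2 of the Car group these were 9.09 and 10.83. With no counts under CT in either genotype the difference of the responses has no usable error and was not called. The list of 6 root markers, with 2 at 0 throughout, was also highest in these groups, at 5.65 to 7.23 CPM under HL+HS and 6.35 to 6.62 CPM under the triple combination of Cleo against 0.427 to 2.80 CPM elsewhere, and its part in the result was not tested.

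Of the 2 genes named inter-alpha-trypsin inhibitor heavy chain H3, LOC102609180 went from 28.6, 27.3 and 24.7 CPM under CT to 134 CPM in each of the 3 WS libraries in Car (2.32 ± 0.06), and to 116, 114 and 114 CPM in Cleo (1.96 ± 0.06). It rose in all 4 treatments with water stress in both genotypes, by 0.74 ± 0.06 to 2.32 ± 0.06. LOC102618944 was higher in Car in all treatments, by 0.47 to 1.11 on the log2 scale under stress. In Cleo it rose under WS (0.62 ± 0.06), HS (0.66 ± 0.06) and WS+HS (0.72 ± 0.06), and in Car by 0.36 ± 0.06 under HS and 0.50 ± 0.06 under WS+HS.

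Genes of possible target proteases were counted in lists made from product names. The cysteine protease list holds mainly papain-type enzymes, the class that cystatins block, but also calpain-type DEK1 (LOC102622111) and ATG4 (LOC102630051), which are not papain-type. It shares XCP1 (LOC102610106), XCP1-like LOC102630073 and XCP2 (LOC102630739) with the xylem and secondary wall list, so the values of both lists are not independent. Of its 29 tested genes, 6 rose and 16 fell under WS+HS in Car (all genes 31.9% and 35%) and 8 rose and 6 fell in Cleo (32.2% and 32%). Under the triple combination 6 rose and 15 fell in Car (32.5% and 38.7%) and 15 rose and 5 fell in Cleo (37.5% and 35.1%). There the genotype difference of the response was positive for 17 and negative for 4 (29.1% and 27.3%). The median log2 change of the 29 was -2.30 in Car and 0.81 in Cleo, against -0.07 and 0.0 for all genes. Cysteine proteinase RD21A (LOC102623323) went from 1167 ± 97.4 to 5065 ± 119 CPM under WS+HL in Cleo (SD, n = 3), a rise of 2.12 ± 0.08. Of the 2 tested legumains, the vacuolar-processing enzyme gene VPE, a protease that matures other vacuolar proteins, rose under WS in Car from 642.4 ± 96.8 to 3054 ± 45.4 CPM (2.25 ± 0.11), and legumain LOC102623739 fell by 0.835 on the log2 scale (± 0.10).

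Other protease lists and the jasmonate list were counted in the same way. Under WS 29.5% of all tested genes rose and 35.3% fell in Car, and 31.2% rose and 33.4% fell in Cleo. Among 36 tested subtilisin-type genes 5 rose and 21 fell under WS in Car and 3 rose and 22 fell in Cleo. Under HS 17 rose and 5 fell in Car (all genes 32.3% and 26.3%) and 10 rose and 13 fell in Cleo (27.1% and 27.4%). The 2 named by lowest p, SBT2.6 (LOC102626683) and SBT3.9 (LOC102627783), fell by 3.59 (± 0.12) and 2.48 (± 0.09) under the triple combination in Car. Serine carboxypeptidases, with 28 tested, gave 5 rises and 18 falls under WS in Car and 8 and 15 in Cleo. Serine carboxypeptidase-like 27 (LOC102607377) went from 42.6 ± 4.97 to 1.66 ± 0.167 CPM under WS in Car. Serine carboxypeptidase-like 18 (LOC102625382) rose there from 25.2 ± 0.968 to 98.7 ± 1.24 CPM. Of 48 tested aspartic proteases, 12 rose and 31 fell under WS in Car and 14 rose and 26 fell in Cleo. Under WS in Car aspartyl protease family protein 1 (LOC102612215) rose by 1.98 ± 0.06. Aspartyl protease family protein At5g10770 (LOC102613981) changed by -3.69 ± 0.14 there. The 36 tested genes of the jasmonate list were taken by name, which does not show that each makes or reads the wound hormone. Of them 12 rose and 13 fell under WS+HS in Car, near the shares of all genes (31.9% and 35%). In Cleo 3 rose and 20 fell under WS+HS (32.2% and 32%). Their genotype difference under WS+HS was positive for 1 and negative for 17 (20.5% and 21.2%). Under the triple combination in Car the synthesis gene 12-oxophytodienoate reductase 3 (LOC102631049) fell by 2.15 (± 0.06), from 61.0 ± 1.65 to 13.8 ± 1.199 CPM, and MYC2-like LOC107178701, a transcription factor of the pathway, by 2.25 (± 0.13).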

How the data were processed

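Leaf RNA of 48 libraries was sequenced after a stranded mRNA preparation, and the submitters' processing notes name FastQC 0.11.7, HISAT2 2.1.0 and StringTie 2.1.3b. The authors deposited raw counts per gene and FPKM values for gene models of sweet orange. How reads that fit more than 1 gene were counted is not given in the sources used here. From the counts, edgeR 4.0.16 (R 4.3.3) fitted 16 group means with TMM scaling and its filter on low counts, leaving 23721 genes and 32 residual degrees of freedom. There were 28 tested comparisons. The quasi-likelihood test was adjusted by Benjamini-Hochberg within each, at 0.05. The biological coefficient of variation was 11.2%. The authors also deposited TPM, which were not used. The deposited FPKM values were used only to compare levels between genes. The members and gene lists were chosen with earlier results of these data known. Members named by rule are the 3 of highest mean FPKM in each class, the called member with the largest rise and fall in each stress, the 3 furthest apart in each direction under CT, the largest called genotype differences of a response, members called in opposite directions in the 2 genotypes, and every serpin and cystatin; the other members are named so that all are accounted for. Of the other lists, up to 2 called genes with the lowest p in the comparison with most calls are named. Of a gene at 0 in a group, a lower bound was computed against 3 counts over the group. Of 1 to 3 counts, a ratio was given with a 95% interval that covers counting error only. A p-value sets a group difference against the spread between libraries, estimated over all 16 groups together. The test was tried on simulated data. Alternatives were DESeq2 1.42.0 (Wald test and size factors), no filter, a term for the column mark, unmarked libraries alone, the libraries of each comparison alone, a replicate block and leaving out each library. Same-numbered libraries did not deviate together: of 360 such pairs 6 had a correlation above 0.1.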

Additional observations from a re-analysis of the deposited data

Results flagged for a closer look

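The values here are the genotype difference of a response, Cleo minus Car on the log2 scale, in edgeR's test of that difference. Each is either the largest called in its direction under its treatment, among members whose mean level reached 1 on the log2 CPM scale, or belongs to a gene called up in one genotype and down in the other. All include the control contrast by which the genes were chosen.

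For LOC102621677 the difference was -2.59 under HL, -3.76 under HS, -1.4 under WS+HL, -5.1 under WS+HS and -3.77 under HL+HS. For LOC102622270 it was -4.32 under HS, -4.66 under WS+HS, -5.31 under HL+HS and -5.66 under the triple combination. LOC102622572 gave -1.31 under HL, -4.44 under WS+HS, -4.56 under HL+HS and -4.49 under the triple combination. LOC102607246 gave -2.39 under WS, -2.74 under WS+HL and -3.64 under the triple combination. LOC102630850 gave -2.15 under HS and -3.92 under WS+HS, or -1.49 and -3.26 without replicate 3 of CT in Cleo.

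LOC102631364 gave 1.74 under HS and 0.94 under HL+HS. The second was lost without replicate 1 of CT or replicate 1 or 3 of HL+HS in Car, and without replicate 1 or 2 of CT or replicate 3 of HL+HS in Cleo. LOC102623961 gave 2.03 under WS, -3.06 under HS and 1.75 under the triple combination. The values under WS and the triple combination lost their call when 1 library was left out. Under WS the value was 3.22 without replicate 3 of WS in Car, with its call kept. The libraries whose absence ended the call for WS were replicate 3 of CT and replicates 1 and 2 of WS in Car, and replicate 2 of CT and replicate 3 of WS in Cleo. For the triple combination they were replicate 3 of CT and replicates 1 and 2 of the combination in Car, and replicates 1 and 2 of CT and replicate 1 of the combination in Cleo. LOC102608318 gave 1.65 under WS+HL, LOC102609180 gave 0.32 under WS+HS, and LOC102629272 gave -0.56 under HL+HS. LOC102629108 gave 12.72 under the triple combination, a fitted value of near-0 counts that depends on the prior count. Without replicate 3 of that group in Car it was 16.5.

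LOC102606769 gave 4.54 and LOC107175685 gave 4.39 under HL. Without replicate 3 of HL in Cleo they were 0.25 and -0.13.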

How the results depend on the processing

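Fitted on the libraries of the comparison alone, the genes called were 4 under HL in Car, 4 under HL in Cleo and 2 for the genotype difference under HL, against 12, 12 and 7. The cause was not tested beyond that such a fit has fewer samples. Leaving out 1 library changed the direction in 3 cases, all without replicate 3 of HL in Cleo. LOC102606769 and LOC107175685 under HL in Cleo became -0.72 and -1.03, and the genotype difference of LOC107175685 became -0.13. Over all libraries left out in turn they ran up to 4.22, 4.16 and 5.06. Calls of single genes were lost for 23 results with DESeq2's Wald test, 2 with its size factors and 15 with a term for the column mark. They were lost for 2 without the filter, 33 on own libraries, 32 on unmarked libraries alone and 57 on leaving out some library. In the same order, calls gained numbered 26, 2, 8, 2, 18, 17 and 45. The unmarked libraries could not give comparisons with HS in Car. The replicate numbers are no pairing, and with a replicate block 2 calls were lost and the triple combination in Car had 18 calls in place of 19.

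Without 1 library the genes called numbered 15 to 16 for WS, 9 to 13 for HL, 15 to 16 for HS, 17 to 18 for WS+HL, 20 to 21 for WS+HS, 12 to 13 for HL+HS, 17 to 18 for WS+HL+HS in Car. 12 to 14 for WS, 9 to 11 for HL, 15 to 17 for HS, 14 to 15 for WS+HL, 16 to 18 for WS+HS, 18 to 21 for HL+HS, 16 to 18 for WS+HL+HS were the numbers in Cleo. Between genotypes under stress they were 17 to 18 for WS, 16 to 19 for HL, 19 to 19 for HS, 14 to 16 for WS+HL, 17 to 19 for WS+HS, 20 to 22 for HL+HS, 21 to 22 for WS+HL+HS. For the genotype difference of the response they were 8 to 9 for WS, 5 to 8 for HL, 14 to 17 for HS, 5 to 9 for WS+HL, 14 to 16 for WS+HS, 8 to 12 for HL+HS, 10 to 13 for WS+HL+HS. In control leaves 14 to 15 genes were 2-fold apart. These fits kept the tested genes and the trend of spread with level of the full fit. For some results the full fit called more genes than any of them. These were HL+HS (14) and WS+HL+HS (19) in Car, and HL (12) and WS+HL+HS (19) in Cleo. The comparison of genotypes under WS (19) was another.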
